A study of Mus musculus with 30 samples.

Results

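The genes described here are the Hox cluster genes, 37 of the 38 rows of the expression table whose symbol is Hoxa, Hoxb, Hoxc or Hoxd followed by a number alone, out of 22477 rows in all. The name alone chose the 38. Those described comprise 10 Hoxa, 9 Hoxb, 9 Hoxc and 9 Hoxd genes. Hoxb3 is not among the 38 and was not analysed here. RNA-seq had been performed on mouse secondary iPSCs, a line in which doxycycline (dox) induces Oct4, Sox2, Klf4 and cMyc, with GFP at the Nanog locus and a constitutive nuclear RFP. All 15 conditions share this genotype, with 2 replicates in each, 30 samples in total. Before the time course, cells cultured in serum/LIF were put in 2i/LIF for 24 h, which the methods give as a minimum. These cells in 2i/LIF (the 0 h condition) were then moved to N2B27 without 2i/LIF for 24, 36, 48, 60, 72 or 96 h. In the 8 re-seeded conditions, cells withdrawn for 0, 24, 48 or 96 h were placed back in serum/LIF, either without dox (–dox) or with it (+dox). The line was maintained on CF1 mouse embryonic fibroblast feeders before the experiment. For the colony assay the methods describe gelatin-coated plates at withdrawal and CF1 feeders at re-seeding. Whether feeders were present in the RNA-seq cultures is not given in the sources used here. Dox induction lasted 48 h, and the paper describes the –dox cells as matched controls.

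Hox genes encode homeodomain transcription factors that give cells of the early embryo their position along the head-to-tail axis. In each cluster the low-numbered genes act toward the head and are switched on first, the high-numbered genes act toward the tail and are switched on last, and in undifferentiated embryonic stem cells the clusters are held silent by Polycomb. Hox proteins bind DNA together with cofactors of the TALE class (Meis, Pbx and Pknox), and retinoic acid is a known inducer of the low-numbered members.

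On the mm10 build (Gencode M21) the described Hoxa genes lie on the minus strand at chr6:52162417-52260880, Hoxb on the plus strand at chr11:96194316-96368256, Hoxc on the plus strand at chr15:102921103-103036852 and Hoxd on the plus strand at chr2:74668310-74765142. The results turn on Hoxc13 and Hoxc4. The last 60 bases of their 180-base homeobox are shown because they encode the recognition helix, the part of the homeodomain that contacts the bases of DNA. The stretches lie in the last coding exon of each gene, at chr15:102927330-102927389 for Hoxc13 and chr15:103035783-103035842 for Hoxc4, both on the plus strand. They were read from the Gencode M21 transcripts, 5′ to 3′, with the codons for the core of the recognition helix in capitals:
Hoxc13: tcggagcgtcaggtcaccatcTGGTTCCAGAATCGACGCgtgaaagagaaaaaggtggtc
Hoxc4: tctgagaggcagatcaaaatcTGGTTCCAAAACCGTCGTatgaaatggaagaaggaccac

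Over the whole homeobox, Hoxc13 and Hoxc4 were identical at 52.8% of bases. Among the described genes the closest relative of Hoxc13 was Hoxa13 (77.2%) and that of Hoxc4 was Hoxb4 (82.2%). The longest exact run that the coding-gene transcripts of another member shared was 21 bases for Hoxc13 and 20 for Hoxc4, against 50 for Hoxb9, the longest among the 11 members that reached 1 FPKM.

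Promoter sequence was at hand for 22 of the 37 members (59.5%), so any summary of base content over the set would be void, and single promoters are described instead. The 200 bases before the RefSeq start site (GRCm38.p6) are printed for Hoxd13, Hoxd8 and the distal start of Hoxa10, 3 members described below, with each CpG in capitals. They lie at chr2:74668025-74668224 (plus strand), chr2:74704415-74704614 (plus strand) and chr6:52240855-52241054 (minus strand), and none overlaps an exon of a member:
Hoxd13: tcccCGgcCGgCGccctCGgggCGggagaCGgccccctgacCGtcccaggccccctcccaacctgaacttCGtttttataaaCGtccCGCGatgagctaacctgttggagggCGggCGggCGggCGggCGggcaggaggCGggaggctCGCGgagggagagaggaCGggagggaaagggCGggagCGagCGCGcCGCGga
Hoxd8: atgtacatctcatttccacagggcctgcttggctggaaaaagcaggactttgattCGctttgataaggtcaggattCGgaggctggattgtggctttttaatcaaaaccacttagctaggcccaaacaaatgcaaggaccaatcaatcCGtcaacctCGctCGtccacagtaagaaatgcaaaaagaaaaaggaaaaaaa
Hoxa10: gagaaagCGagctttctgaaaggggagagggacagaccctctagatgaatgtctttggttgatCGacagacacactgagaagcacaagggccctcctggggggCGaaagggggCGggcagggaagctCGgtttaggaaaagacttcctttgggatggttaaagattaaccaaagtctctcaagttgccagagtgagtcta

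The 250 bases before the Hoxd13 start held 31 CpGs, a number reached by 5.19% of all 32851 mouse promoters. The corresponding stretch of Hoxd8 held 6 and that of the distal Hoxa10 start 7, close to the median of 6 over all promoters. Hoxa10 has a second start, nearer to the gene's end, whose stretch held 20 CpGs, a number reached by 17.9% of all promoters.

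The Hox genes were expressed at low levels throughout. The deposited values are FPKM (fragments scaled to transcript length and to the number of mapped fragments), 1 combined value per gene and condition. There is therefore no replicate spread, no test and no p-value here, and sequencing depth is unknown. Only 11 of the 37 members (29.7%) reached 1 FPKM in any condition, against 66.1% of all genes. These were Hoxa10, Hoxb9, Hoxb13, Hoxc4, Hoxc6, Hoxc10, Hoxc12, Hoxc13, Hoxd8, Hoxd9 and Hoxd13. Of the 555 member values, 219 were listed at 0 (39.5%) and 18 were at 1 FPKM or more. The highest value among the other 26 members was 0.892 FPKM, for Hoxa7 at 0 h.

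**Figure D1:**
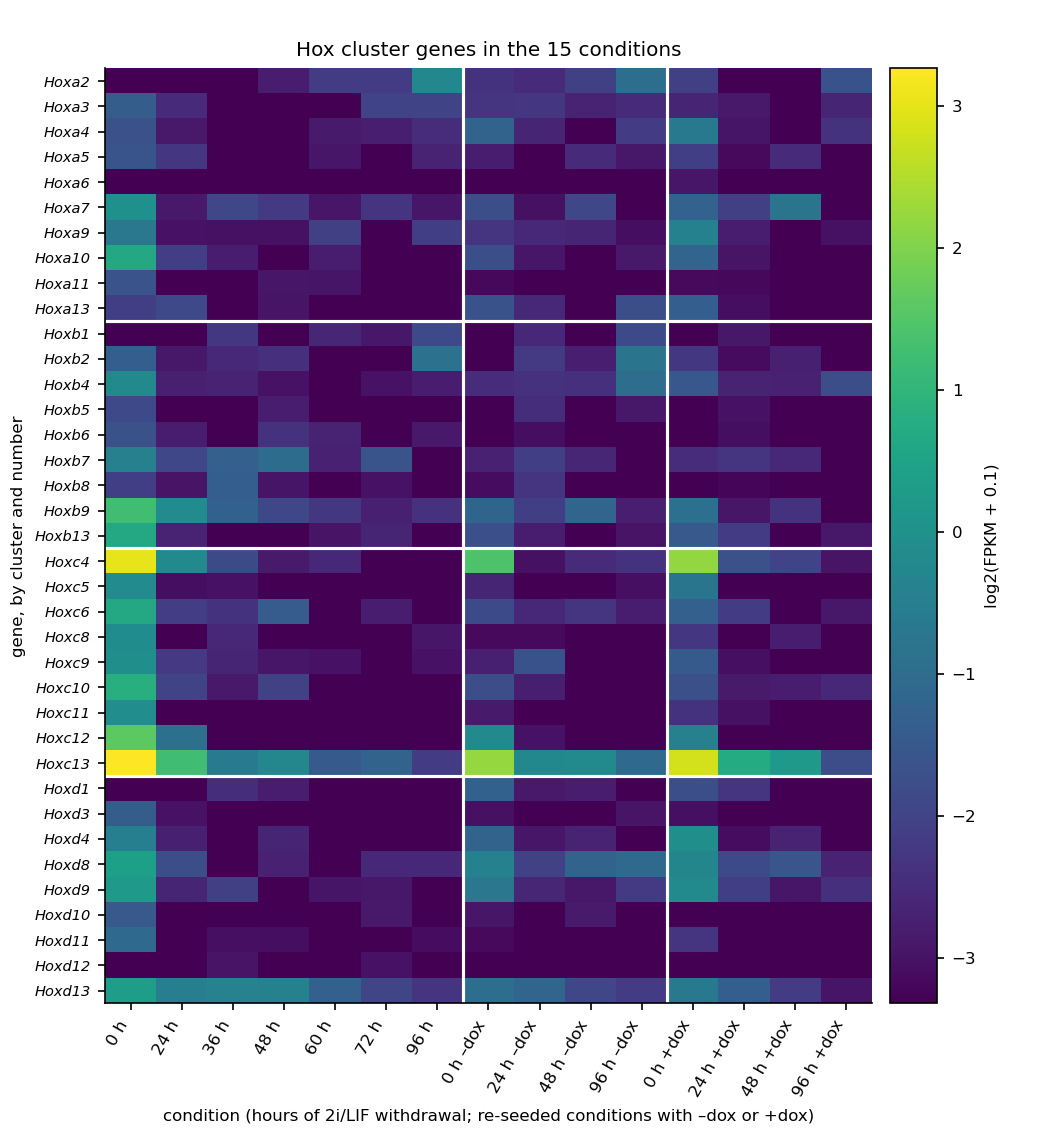
Level of each of the 37 Hox genes (rows, ordered by cluster and number) in the 15 conditions (columns), as log2(FPKM + 0.1). White lines separate the clusters and the time course, –dox and +dox conditions. The 0 h columns are the brightest, and Hoxc4 and Hoxc13 stand out among the rows.

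The level was highest in 2i/LIF and not after withdrawal. All 11 of these members were at 1 FPKM or more at 0 h, so the order in which members first reach 1 FPKM could not be ranked against their number. Of the 36 members listed above 0 anywhere in the time course, 29 (80.6%) had their highest value at 0 h, compared with 21.97% of all genes above 0 and 18.4% of genes that stay under 1 FPKM. Of those 29 members, 18 stayed under 1 FPKM themselves. The lowest value above 0 at 0 h was 0.133 FPKM, whereas 5 members were listed at 0 there. In bulk RNA, fewer cells that express a gene and less of its RNA per cell cannot be told apart.

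Hoxc13, the last gene of the Hoxc cluster in the tail-ward direction and known for its part in hair and nail formation, had the highest level of all members. Its FPKM over the 7 times of the course, from first to last, was 9.52, 2.26, 0.548, 0.732, 0.267, 0.329 and 0.124. In the –dox conditions after 0, 24, 48 and 96 h of withdrawal it was 4.55, 0.745, 0.787 and 0.377 FPKM. In the +dox conditions it was 6.97, 1.57, 1.06 and 0.195 FPKM. All 3 conditions without withdrawal were thus above all 12 conditions with it.

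Hoxc4, a gene from the middle of the head-to-tail series that takes part in neck and upper thorax patterning, was likewise highest in those 3 conditions. Its FPKM in the time course was 7.9995, 0.787, 0.181, 0.0391 and 0.0668 from 0 to 60 h and was listed at 0 at 72 and 96 h. It was 2.60, 0.0227, 0.0720 and 0.0958 FPKM in the –dox conditions and 4.50, 0.210, 0.149 and 0.0271 FPKM in the +dox conditions. Hoxc4 and Hoxc13 together made up 41.8% of the summed FPKM of the 37 members at 0 h, 56.2% at 0 h –dox and 56.1% at 0 h +dox, but 5.25% at 96 h.

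Hoxd13, the tail-end gene of the Hoxd cluster that patterns the digits, was lower and more even. Its FPKM in the time course was 1.20, 0.608, 0.655, 0.643, 0.305, 0.160 and 0.0994. In the –dox conditions it was 0.417, 0.344, 0.163 and 0.125 FPKM, and in the +dox conditions 0.532, 0.295, 0.121 and 0.0291 FPKM. It was at 1 FPKM or more in 1 of the 15 conditions, next to 6 for Hoxc13 and 3 for Hoxc4.

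**Figure D2:**
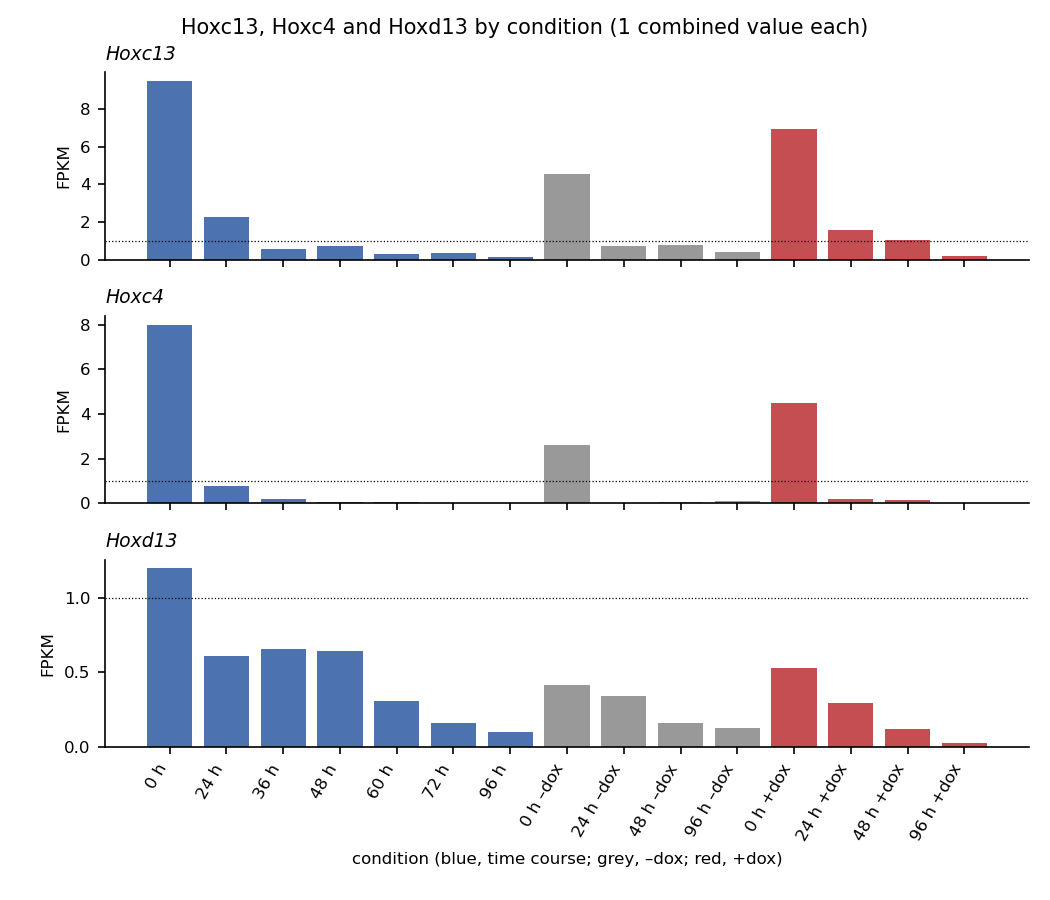
FPKM of Hoxc13, Hoxc4 and Hoxd13 (panels, each with its own vertical scale from 0) in the 15 conditions, 1 combined value per bar and no error bars. The dotted line marks 1 FPKM. Hoxc13 and Hoxc4 are high in the 3 conditions without withdrawal, and Hoxd13 stays at 0.608 to 0.655 FPKM from 24 to 48 h of the time course.

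The first question was how the genes change as cells leave 2i/LIF. A gene was counted as higher or lower when the plain ratio of its FPKM values was at least 2 and the larger value at least 1 FPKM. Between 0 and 24 h, 10 of the 37 members were lower and 0 were higher, where 8.22% of all genes were lower and 4.95% higher. Only the 11 members at 1 FPKM or more at 0 h could be counted as lower. Among the 14856 genes that reach 1 FPKM in any condition, 12.4% were lower and 7.49% higher. The median difference over the members was -1.84 on the log2(FPKM + 0.1) scale, against 0 over all genes. With 1 FPKM added in place of 0.1 the member median was -0.48, so its size depends on the added constant. Without regard to the minimum, 31 members were lower at 24 h and 1 was higher, and 43.2% of all genes were lower.

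Hoxb13, a tail-end gene known from the posterior spine and the prostate, had the steepest of these differences, from 1.48 to 0.0571 FPKM, a 25.9-fold lower value. Hoxc4 was 10.2-fold lower and Hoxc13 4.21-fold. The smallest fold among the 10 was that of Hoxb9, a gene of thoracic patterning, which was 2.78-fold lower. Hoxd13 missed the 2-fold mark at 1.97-fold.

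The remaining genes of this group are members of the middle and tail-ward part of the clusters. Hoxc12, next to Hoxc13, was at 2.96 FPKM at 0 h and 0.440 at 24 h, and was listed at 0 in every later condition of the time course. Hoxc10, which acts in hindlimb motor neurons, was at 1.65 and then 0.155 FPKM, and its annotated exons share bases with those of Hoxc5. Hoxc6, a thoracic gene, was at 1.47 and then 0.130 FPKM. All 3 belong to the Hoxc cluster, whose 9 genes summed to 27.0 FPKM before withdrawal and to 3.91 FPKM after 24 h of it.

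Hoxa10, which patterns the lumbar spine and the uterus, was at 1.47 and then 0.129 FPKM. Hoxd8 was at 1.22 and then 0.200 FPKM, and Hoxd9, a gene of the limb and lumbar region, at 1.06 and then 0.0592 FPKM. Neither of the Hoxd genes was above 0.137 FPKM at any later time of the course. At 0 h the described Hoxa genes summed to 3.97 FPKM, Hoxb to 5.95 and Hoxd to 5.01, each far below the Hoxc sum.

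At 24 h Hoxc13 alone was at 1 FPKM or more, so no other member could be counted as different in the step to 36 h. From 24 to 36 h Hoxc13 alone was lower (4.13-fold), where 3.48% of all genes were lower and 3.02% higher. In each of the later steps 0 members were higher and 0 lower. Of all genes, 1.53% were higher and 1.11% lower in the step to 48 h, 2.79% and 2.39% in the step to 60 h, 1.67% and 1.28% in the step to 72 h, and 2.90% and 2.85% in the step to 96 h. All members were then too low for the rule, with 0 at 1 FPKM or more from 36 h on, so none could be counted in these later steps. Hoxb9 passed through 2.26, 0.813, 0.316, 0.169, 0.111, 0.0499 and 0.0905 FPKM.

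Over the whole course, 11 members were lower at 96 h than at 0 h and 0 were higher, where 9.79% of all genes were lower and 10.0% higher (14.8% and 15.2% of the genes that reach 1 FPKM). The median difference of the members was -2.59 on the log2(FPKM + 0.1) scale. Hoxc13 was 76.7-fold lower, and Hoxb9 24.99-fold and Hoxd13 12.05-fold. Only the 11 members at 1 FPKM or more at 0 h could be counted as lower here too. With 0 members at 1 FPKM or more at 96 h, none could be counted as higher. Between 48 and 96 h 0 members were counted, where 8.73% of all genes were higher and 6.36% lower. At 48 h too 0 members were at 1 FPKM or more, so none could be counted.

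3 head-ward genes had their highest time-course value at 96 h, all under 1 FPKM. Hoxa2, which specifies the second pharyngeal arch, was listed at 0 from 0 to 36 h and was at 0.0408, 0.124, 0.121 and 0.750 FPKM from 48 to 96 h. Hoxb1, a hindbrain gene, was at 0.176 FPKM at 96 h and Hoxb2 at 0.452 FPKM. At 96 h the described members numbered 1 to 3 summed to 1.53 FPKM, those numbered 4 to 8 to 0.343 FPKM and those numbered 9 to 13 to 0.487 FPKM. At 0 h the same sums were 0.858, 16.2 and 24.8 FPKM. The higher sum of the members numbered 1 to 3 lay mainly in Hoxa2, while Hoxa3 (0.284 and 0.156 FPKM at 0 and 96 h) and Hoxd3 (0.282 FPKM and then listed at 0) were lower. As 0 members of that set reached 1 FPKM in any condition, none could pass the rule.

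The level of fibroblast markers moved with the early difference. A list of 18 fibroblast markers summed to 879.2 FPKM at 0 h, with 17 of 18 at 1 FPKM or more, and to between 35.6 and 98.5 FPKM at the later times. Of the list, 15 markers were lower at 24 h and 1, Thy1, was higher, where 8.22% of all genes were lower and 4.95% higher. The median share of the 0 h level that remained was 14.2%. For the 32 members above 0 at 0 h that share was 9.12%. The 32 were taken for their 0 h value, and the 5 members listed at 0 there are left out. Fibroblasts carry Hox transcripts according to their body site, and the part of these cells in the 0 h values was not tested within the time course.

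At 0 h –dox the fibroblast list summed to 22.3 FPKM, with 6 of 18 markers at 1 FPKM or more. Lum, Fap and Twist2 were listed at 0, Dcn was at 0.0908 FPKM, Col3a1 at 0.116 FPKM and Col1a1 at 1.45 FPKM, against 228.7 FPKM for Col1a1 at 0 h. In these cells Hoxc13 was at 4.55 FPKM and Hoxc4 at 2.60 FPKM, and 5 members were at 0.5 FPKM or more. The part of fibroblasts in these re-seeded values was not tested either.

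The median fibroblast marker retained 1.08% of its 0 h level at 0 h –dox and 2.03% at 0 h +dox. The 32 members above 0 at 0 h retained a median of 12.8% and 25.5%. These 32 were taken for their 0 h value, 11 of them were at 1 FPKM or more there, and the 5 listed at 0 there are left out. Hoxd8 retained 52.5%, Hoxd9 48.1%, Hoxc13 47.8%, Hoxd13 34.8%, Hoxc4 32.5% and Hoxc12 26.0%. Hoxb9, Hoxb13, Hoxa10, Hoxc6 and Hoxc10 retained between 11.9% and 14.9%. The fibroblast list was uneven too, with Twist1 at 3.69 FPKM at 0 h –dox and 3.33 FPKM at 0 h and Mmp2 at 7.86 and 16.5 FPKM.

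**Figure D3:**
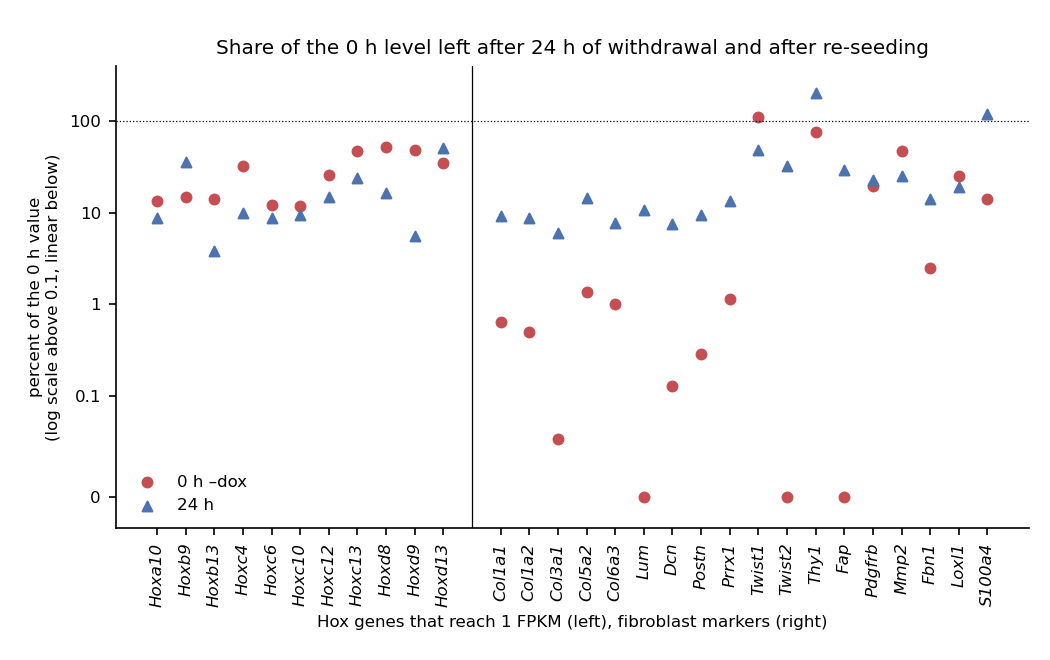
Percent of the 0 h FPKM that was left after 24 h of withdrawal (blue triangles) and in the 0 h –dox condition (red circles), for the 11 Hox genes that reach 1 FPKM (left) and 18 fibroblast markers (right). The vertical axis is logarithmic above 0.1 and linear below. At 0 h –dox the 11 Hox genes lie between 11.9% and 52.5%, and the fibroblast markers run from 0 to over 100 (Twist1). The 11 were taken for their level at 0 h. Members not drawn, all under 1 FPKM in every condition, spread more widely. Examples run from 0 (Hoxb5 and Hoxb6) and 1.36% (Hoxc8) to 52.9% (Hoxd4), 158.0% (Hoxa4) and 161.3% (Hoxa13).

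The second question was how re-seeding in serum/LIF moves the genes. At 0 h –dox against 0 h, 10 of the 37 members were lower and 0 were higher, where 5.88% of all genes were lower and 6.99% higher (8.90% and 10.6% of the genes that reach 1 FPKM). Hoxd8, at 1.91-fold lower, was not counted, and Hoxc13 passed narrowly at 2.09-fold. Only the 11 members at 1 FPKM or more at 0 h could be counted as lower. Only the 2 at 1 FPKM or more at 0 h –dox, Hoxc13 and Hoxc4, could have been counted as higher. In direction alone, 30 members were lower at 0 h –dox than at 0 h and 4 were higher. The share of all genes in each direction was not computed here, so these 2 counts have no background. The sum over all members was 12.7 FPKM against 41.9 FPKM at 0 h. It was 2.97, 2.65 and 3.27 FPKM after 24, 48 and 96 h of withdrawal and re-seeding.

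In the –dox conditions 0 members were higher than at the matching time of withdrawal. After 24 h Hoxc13 was 3.04-fold lower –dox, where 6.13% of all genes were lower and 8.59% higher. Hoxc13 was the only member at 1 FPKM or more in either of these conditions, so no other could be counted. After 48 h 0 members were counted, where 8.72% of all genes were higher and 6.58% lower. At 96 h 0 members were counted in either direction, where 7.17% of all genes were higher and 6.49% lower. With 0 members at 1 FPKM or more at 48 h, 96 h, 48 h –dox or 96 h –dox, none could be counted in these 2 comparisons. The paper describes the –dox cells as matched controls of the 48 h dox cells, so 48 h –dox and 96 h of the time course are matched in total time. Comparing 48 h –dox with 96 h, 0 members were counted either, where 3.61% of all genes were higher and 3.70% lower. Here too none could be counted, for the same reason. In the comparisons with the matching time of withdrawal, medium and time in culture differ together and cannot be told apart. Between 48 h –dox and 96 h the total time is the same, but medium and re-seeding differ together.

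The re-seeded conditions were next compared among themselves. At 24 h –dox against 0 h –dox 2 of the 37 members, Hoxc13 and Hoxc4, were lower, a share near the background, where 6.61% of all genes were lower and 5.06% higher. In the next steps, to 48 and to 96 h –dox, 0 members were counted, where 4.34% and then 7.06% of all genes were higher and 4.26% and then 5.71% lower. With 0 members at 1 FPKM or more at 24, 48 or 96 h –dox, none could be counted in these steps. In the +dox conditions Hoxc4 and Hoxc13 were lower at 24 h than at 0 h, where 5.61% of all genes were lower and 5.14% higher. From 24 to 48 h +dox 0 members were counted, where 3.65% of all genes were higher and 3.78% lower. Hoxc13 was the only member at 1 FPKM or more at 24 or 48 h +dox. Between 48 and 96 h +dox Hoxc13 was lower and 0 members were higher, where 6.54% of all genes were lower and 5.87% higher.

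**Figure D4:**
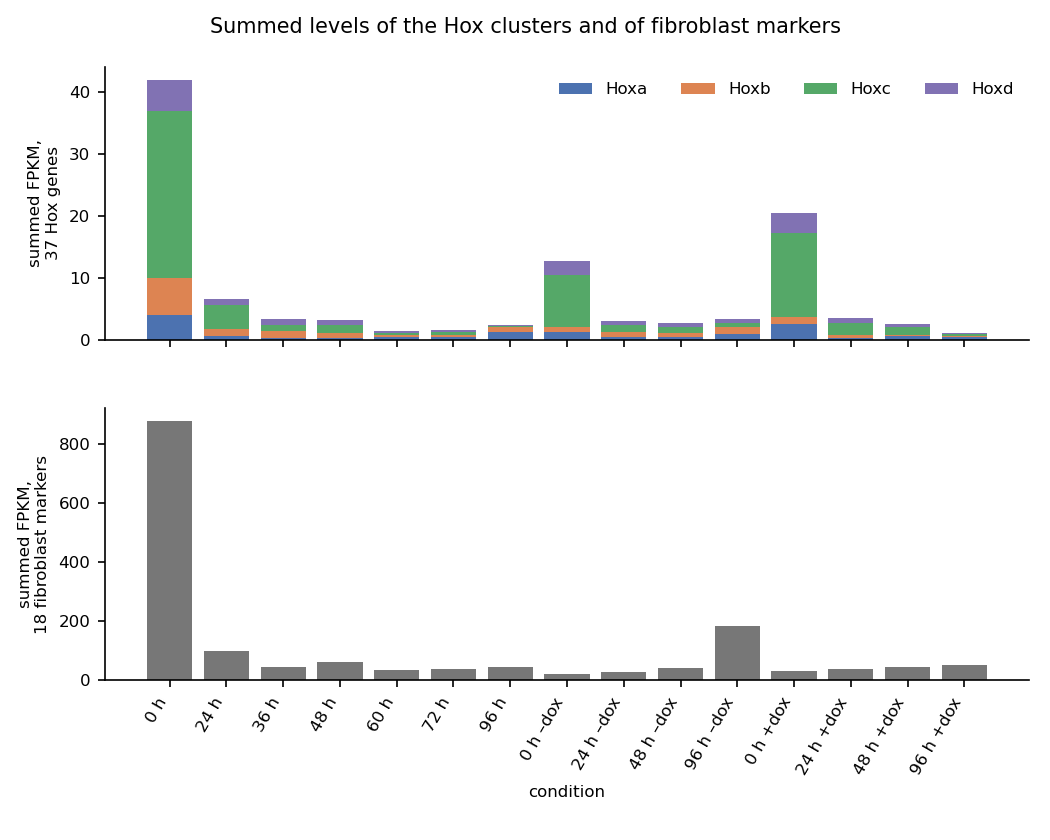
Summed FPKM of the Hox genes, stacked by cluster (top), and of 18 fibroblast markers (bottom) in the 15 conditions, with axes from 0. The Hox sum was 41.9 at 0 h, 12.7 at 0 h –dox and 20.4 at 0 h +dox, while the fibroblast sum was 879.2, 22.3 and 32.5. At 96 h –dox the fibroblast sum was 184.8 and the Hox sum 3.27.

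At 96 h –dox the fibroblast list summed to 184.8 FPKM, with Col1a2 at 86.0 FPKM and Col1a1 at 33.2 FPKM. Of the 18 markers 9 were higher than at 96 h of the time course and 3, Dcn, Twist1 and Thy1, were lower. In this comparison 7.17% of all genes were higher and 6.49% lower. Lum was at 0.0605 FPKM. In this condition the Hox sum was 3.27 FPKM with Hoxc13 at 0.377 FPKM. Hoxb1 and Hoxb2 had their highest values of all conditions there, at 0.181 and 0.480 FPKM.

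The third question was whether induction of the 4 factors moves the genes. At 0 h +dox against 0 h –dox, 0 members were higher or lower by the rule, where 2.06% of all genes were higher and 3.18% lower. Hoxc13 was at 6.97 against 4.55 FPKM (1.53-fold) and Hoxc4 at 4.50 against 2.60 FPKM (1.73-fold). These 2 were the only members at 1 FPKM or more in these conditions, so no other could be counted. In direction alone, 27 members were higher with dox, 6 lower and 4 equal, and 43.7% of all genes were higher. The median member difference was 0.31 on the log2(FPKM + 0.1) scale. Without replicates it is not known whether a difference of this size exceeds the spread between samples.

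At 24 h Hoxc13 was 2.10-fold higher with dox (1.57 against 0.745 FPKM), where 1.62% of all genes were higher and 1.92% lower. It was the only member at 1 FPKM or more in either condition, so no other could be counted. At 48 h 0 members were counted, where 3.70% of all genes were higher and 3.64% lower. Again only Hoxc13, at 1 FPKM or more with dox, could have been counted. At 96 h 0 members were at 1 FPKM or more with or without dox, so none could be counted. Of all genes, 3.76% were higher and 6.25% lower there. In direction alone, 12 members were higher and 19 lower with dox at 24 h, 8 and 12 at 48 h, and 3 and 19 at 96 h, the others being equal. Of all genes, 43.2%, 40.7% and 38.2% were higher with dox at these times. Most of these member values lie near 0.

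Across the 15 conditions the median Pearson correlation of log2(FPKM + 0.1) was 0.81 over the 14 pairs of the 11 members that lie in one cluster and 0.80 over the 41 pairs in different clusters. All 55 pairs ranged from 0.32 to 0.95. The conditions share cells and scaling, and many values lie near 0, so these figures are descriptions. These 11 members were taken for reaching 1 FPKM and all did so at 0 h, so a peak that they share there was fixed by the choice and a high correlation follows from it.

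Of the 10 noncoding rows of the clusters examined, 2 exceeded 2 FPKM. Halr1, a noncoding RNA of the Hoxa region, was at 0.294, 1.65, 0.387, 0.828, 2.51, 3.80 and 0.424 FPKM in the time course. It was at 22.5, 3.92 and 0.306 FPKM and then listed at 0 in the –dox conditions, and at 9.88, 1.67, 0.338 and 0.433 FPKM in the +dox conditions. Its highest value thus fell in re-seeded cells without withdrawal. The described Hoxa genes summed to 1.30 FPKM there.

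Hotairm1, another noncoding RNA of the Hoxa region, was at 12.7, 7.41, 2.11, 6.19, 4.97, 1.06 and 5.94 FPKM in the time course. It was at 2.86, 4.62, 3.12 and 7.04 FPKM in the –dox conditions and at 14.4, 2.78, 3.13 and 10.4 FPKM in the +dox conditions. Its lowest value was thus at 72 h and its highest at 0 h +dox. The strand setting of the counting is not given in the sources used here, so reads from opposite strands cannot be told apart. Hotair and Hottip, long noncoding RNAs at the Hoxc and Hoxa clusters, did not exceed 0.132 FPKM.

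**Figure D5:**
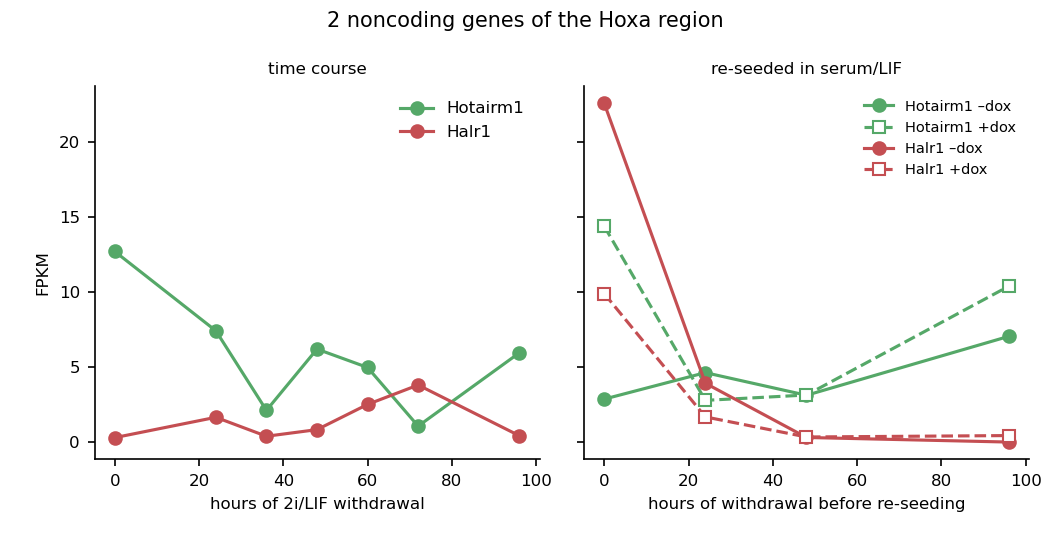
FPKM of the noncoding genes Hotairm1 and Halr1 against hours of withdrawal, in the time course (left) and after re-seeding in serum/LIF (right; filled symbols –dox, open symbols +dox). Halr1 is highest at 0 h –dox (22.5) and Hotairm1 at 0 h +dox (14.4).

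Among the partners of Hox proteins, the 8 TALE cofactors, 0 were higher and 1, Pknox2, was lower at 24 h than at 0 h. Of all genes, 4.95% were higher and 8.22% lower. At 0 h –dox against 0 h 3 of the cofactors were higher (Meis1, Pbx3 and Pbx4) and 3 lower (Meis2, Meis3 and Pknox2). There 6.99% of all genes were higher and 5.88% lower. Of the 8 cofactors, 6 were higher at 96 h than at 0 h and 0 lower, where 10.0% of all genes were higher and 9.79% lower. Pbx3 was at 2.47 and 21.4 FPKM, and Meis1 at 0.340 and 1.13 FPKM at 0 and 96 h. Meis2 (16.6 and 13.7 FPKM) and Pknox1 (6.63 and 4.59 FPKM) were not counted.

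Of 9 ParaHox and Hox-adjacent genes, 2 were lower at 96 h than at 0 h, where 9.79% of all genes were lower and 10.0% higher. Cdx1, an activator of Hox genes in the tail bud, was at 9.16, 0.139 and 0.424 FPKM after 0, 24 and 96 h, and Cdx2 was at 1.01 and 0.0799 FPKM and then listed at 0. Of 11 caudal epiblast genes, 3 were lower, T, Nkx1-2 and Sp5, and 4 were higher. Sp5, a Wnt target, was at 26.7, 0.185 and 3.10 FPKM at the same times.

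Of 13 retinoic acid genes, 6 were higher at 96 h and 1, Aldh1a2, which makes retinoic acid, was lower. Of all genes, 10.0% were higher and 9.79% lower in this comparison with 0 h. Cyp26a1, which breaks retinoic acid down and is a target of it, was at 0.0757, 2.49 and 17.6 FPKM after 0, 60 and 96 h.

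Of 18 genes of the Polycomb and MLL complexes, which hold Hox clusters silent or active, 4 were lower at 96 h (Eed, Suz12, Cbx8 and Wdr5) and Kmt2a was higher. Of 18 genes that flank the clusters, 4 were lower (Skap2, Calcoco2, Ttll6 and Nfe2l2) and Calcoco1 was higher. Between 0 and 24 h, 0 of these flanking genes were lower and Snx11 was higher, where 8.22% of all genes were lower and 4.95% higher. For a list of 18 genes these counts are near the background. Between 0 and 96 h 10.0% of all genes were higher and 9.79% lower. All 10 pluripotency markers were lower at 96 h, and 8 of 11 neural progenitor markers were higher and 1 lower. Of 11 mesoderm markers 0 were higher and 1 lower, of 10 endoderm markers 1 and 1, and of 9 trophoblast markers 4 and 2.

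The median difference between 96 and 0 h on the log2(FPKM + 0.1) scale was 1.55 over the TALE cofactors, 1.75 over the retinoic acid genes, -0.52 over the ParaHox and Hox-adjacent genes, -0.18 over the Polycomb and MLL genes and -0.26 over the flanking genes. It was 0 over the caudal epiblast genes, as over all genes, and -2.59 over the Hox members. With 1 FPKM added in place of 0.1 the median over the Hox members was -0.69, and the other lists were not computed that way.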

How the data were processed

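The deposited table holds FPKM values that the authors made with TopHat 2.0.14, Cufflinks 2.2.1 and Cuffdiff against mm10, with both replicates of a condition combined into 1 value. The strand setting is not given in the sources used here. Further columns of the table hold the authors' own calls of dynamic groups and dox response and were not used. The samples were grouped by their labels. Genes were counted when the plain ratio was at least 2 and the larger value at least 1 FPKM, over all 22477 rows. Medians and correlations used log2(FPKM + 0.1). The named genes are every member that reaches 1 FPKM, and otherwise genes of the listed pathways and markers. Hoxa2, Hoxa7, Hoxb1 and Hoxb2 and the noncoding genes were named after their values were seen. The name rule uses no measured value, but this gene family and the lists were chosen with earlier results of these data known. A few genes of the name rule and of the lists are not reported here. The counting was tested on simulated data with changes planted only in genes well above 1 FPKM, a level that most members do not reach. Python 3.11.15, numpy 2.4.6 and pandas 2.3.3 were used.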

Additional observations from a re-analysis of the deposited data

How the results depend on the processing

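The counts depend on the minimum level, since few members reach 1 FPKM. The shares of all genes were not computed under the changed settings, so the counts below have no background beside them. Without a minimum, differences between values near 0 are counted too. Without a minimum, the counts of members higher or lower were 30 (24 h against 0 h), 23 (36 h against 24 h), 18 (48 h against 36 h), 23 (60 h against 48 h), 18 (72 h against 60 h), 18 (96 h against 72 h), 32 (96 h against 0 h) and 22 (96 h against 48 h) in the time course. They were 13, 20, 11 and 14 for +dox against –dox after 0, 24, 48 and 96 h, and 30, 19, 20 and 19 for –dox against the matching time of withdrawal. They were 21 for 48 h –dox against 96 h, 29, 21 and 22 for the successive steps of the –dox conditions and 30, 23 and 19 for those of the +dox conditions. With a minimum of 0.5 FPKM they were 19 (24 h against 0 h), 3 (36 h against 24 h), 2 (60 h against 48 h), 1 (96 h against 72 h), 21 (96 h against 0 h), 3 (96 h against 48 h), 2 (0 h +dox against –dox), 18, 3 and 1 (–dox against withdrawal for 0, 24 and 48 h), 2 (48 h –dox against 96 h), 5 and 1 (first and last –dox step) and 8 (first +dox step). With a minimum of 2 FPKM they were 4 (24 h against 0 h), 4 (96 h against 0 h), 0 (24 h +dox against –dox), 4 (0 h –dox against 0 h) and 0 (last +dox step).

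For the minimum of 0.5 or 2 FPKM and for the settings below, counts are listed where they moved by over 1.5 times or to or from 0. A fold of 1.5 gave 2 members for dox at 0 h. A fold of 3 gave 0 for dox at 24 h. Ratios of FPKM + 1 gave 0 for dox at 24 h, for 24 h –dox against 24 h and for the last +dox step. The higher Hoxc13 level with dox at 24 h was thus lost under 3 of these settings. Smaller shifts also occurred. The 10 members lower at 24 h than at 0 h became 7 with ratios of FPKM + 1. The 10 members lower at 0 h –dox than at 0 h became 7 with a fold of 3 and 7 with ratios of FPKM + 1. Median-ratio scaling, with factors from 0.990 to 1.03, moved none of the counts by over 1.5 times. The median member differences depend on the constant added to FPKM. With 1 and 0.01 FPKM in place of 0.1, the median was -0.48 and -2.81 for 24 h against 0 h. It was -0.69 and -4.31 for 96 h against 0 h, and 0.09 and 0.54 for dox at 0 h. No paired analysis was possible because the table holds 1 combined value per condition, and leaving out a replicate was not possible for the same reason. The number of reads behind each value is unknown, so what depth limits could not be estimated.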
